A study of Mus musculus with 2 samples.

Results

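The genes described here encode parts of the B cell antigen receptor and other proteins typical of the B lineage: Ighm, Cd79a, Cd79b, Ms4a1, Cd22, Pax5, Ebf1, Cr2 and Blk. These 9 genes were taken by name, from 18193 named genes on the array, and were measured by every probe set annotated to 1 of them alone, which gave 26 of 45037 probe sets. They were read in mouse 5cc7 T cells, which respond to a moth cytochrome c peptide (MCC). The cells had been stimulated in vitro with MCC and were harvested as blasts, enlarged dividing lymphocytes, 5 days later. RNA went onto 2 Affymetrix mouse 430 2.0 arrays, called set 1 and set 2 as in their titles. Both arrays belong to 1 group, so there was no resting, B cell or other control sample, and the labels do not tie them to separate cultures, so their spread may be technical. The labels give neither the strain nor the age of the mice, do not say which cells presented the peptide, and do not say whether the blasts were purified before RNA was taken.

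In a B cell, membrane immunoglobulin binds antigen, and the paired signalling chains Ig-alpha and Ig-beta carry the signal into the cell, where kinases of the Src family start the cascade. Coreceptors such as the complement receptor CD21 strengthen that signal, and CD22 restrains it. The transcription factors Ebf1 and Pax5 specify and maintain the B lineage and act on many of these genes. T cells use a separate receptor, so these genes serve widely as markers of B lineage RNA.

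The deposited values were linear intensities, with a median of 36.4 on set 1 and 37.9 on set 2. Background was judged by a bound on each array, the 95th percentile of the probe sets for genes of liver, eye, pancreas and kidney (54.28 on set 1 and 56.21 on set 2), which a probe set had to exceed on both arrays to be called above it. A gene was called when at least 1 of its probe sets was. Among genes of other organs, which were not used for the bound, 6 of 46 measured (13%) were called by this rule. Probes differ in how well they bind, so intensities rank neither genes nor probe sets by transcript number. In RNA of a whole culture, a low level in many cells and a high level in few cells cannot be told apart. All 8 measured T cell markers, among them Cd3d, Cd3e and Cd4, were above background.

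Of the 9 genes, 6 were above background: Ighm, Cd79a, Cd79b, Ms4a1, Cd22 and Blk. Pax5, Ebf1 and Cr2 were not. This is 66.7% of the genes, beside 47.2% of all named genes called the same way. By probe set it was 11 of 26 (42.3%), beside 37.8% of all probe sets, a share near that of the array as a whole.

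**Figure D1:**
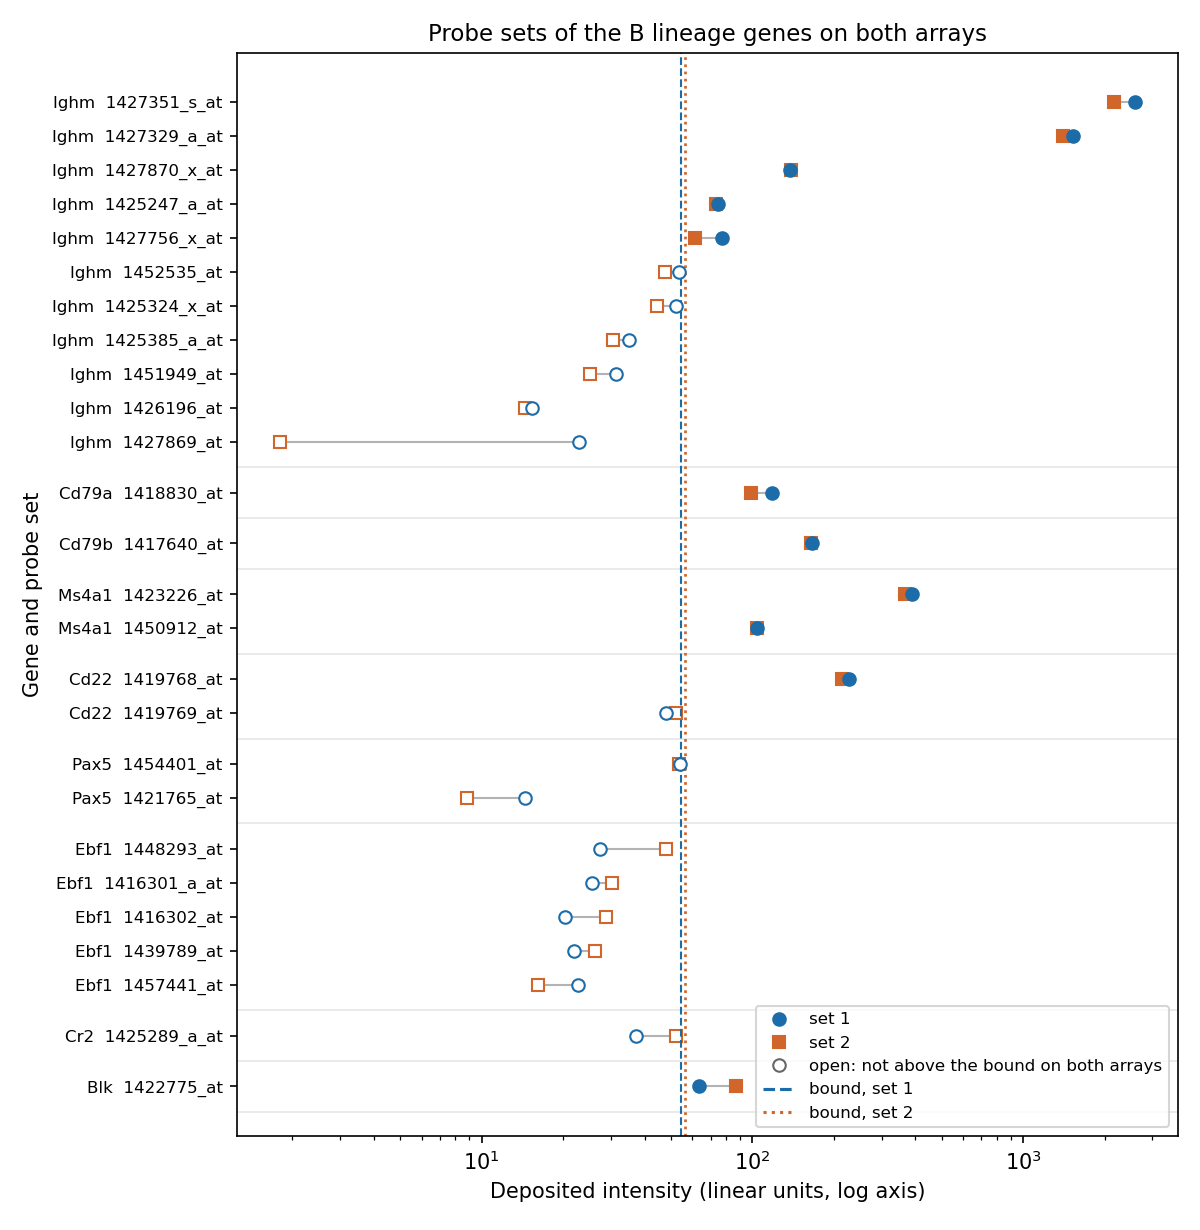
Intensity of each of the 26 probe sets (rows, grouped by gene) on set 1 (circles) and set 2 (squares), on a log axis, with the bound of each array as a vertical line. Filled symbols mark the 11 probe sets above the bound on both arrays; the 11 Ighm probe sets, filled and open, run from 12.3 to 2371.8 in mean intensity.

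Ighm, the constant region of the mu heavy chain that makes membrane and secreted IgM, had 11 probe sets, of which 5 were above background. The probe set 1427351_s_at read 2580.6 on set 1 and 2163 on set 2, and 1427329_a_at read 1529.7 and 1399.5. These were 38.5 to 47.5 times and 24.9 to 28.2 times the bound. The next Ighm probe set, 1427870_x_at, read 138 on set 1 and 138.4 on set 2, followed by 1425247_a_at at 74.4 and 73.1 and 1427756_x_at at 77.1 and 61.1. The last of these exceeded the bound of set 2 by a factor of 1.09. The other 6 Ighm probe sets lay under the bound of both arrays. The highest of these, 1452535_at, read 53.6 on set 1 and 47.5 on set 2, and the lowest, 1427869_at, read 22.8 and 1.8. At intensities under 32 the central 95% of log2 differences between the arrays spans -2.56 to 2.56, and this probe set, at 3.69, lies outside it.

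The Ighm calls were set beside the type of probe set. On this array the endings _a, _s and _x mark probe sets whose probes can match several transcripts of a gene, several genes, or sequences that share part of their bases with others. All 5 Ighm probe sets above background carried such an ending, out of 7 that did, and none of the 4 without one was above background. By ending they were 2 of 3 with _a, 1 of 1 with _s and 2 of 3 with _x. On the whole array 56% of the probe sets with such an ending were above background, against 33.3% of those without. Both splits go the same way, and so few probe sets of 1 gene cannot tell the Ighm split from that of the array. Which transcripts the bright Ighm probe sets bind was not tested. A further 4 probe sets were annotated to Ighm together with other heavy chain genes and so fell outside the rule. None was above background, and their mean intensities ran from 4.25 to 41.85.

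The signalling chains of the receptor were both above background, each with 1 probe set. Cd79a, which encodes Ig-alpha, read 118.4 on set 1 and 98.4 on set 2, or 2.18 and 1.75 times the bound (mean 108.4 ± 14.1, SD, n = 2). Cd79b, which encodes Ig-beta, read 166.2 and 164.5, or 3.06 and 2.93 times the bound (165.35 ± 1.2). Among genes of other organs (heart, brain, skin, gut, gonads and others), 1 of 46 measured was as bright as either chain on both arrays, the thyroid gene Tg at 444.8 and 418.3. The pituitary hormone gene Pomc read 107.3 on set 1 and 117.8 on set 2, higher than Cd79a on set 2 and in the mean of both arrays, and the heart muscle gene Mybpc3 read 108.3 and 90.4. Cd79a was therefore not set apart from the brightest genes of other organs.

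Surface proteins of mature B cells came next. Ms4a1, which encodes CD20, had both probe sets above background: 1423226_at read 389.7 on set 1 and 365.1 on set 2, and 1450912_at read 104.3 and 104.2. The brighter one stood at 7.18 and 6.5 times the bound. Ms4a1 and Ighm were the 2 genes past 4 times the bound, with 3 of the 26 probe sets between them, where 14.4% of all probe sets and 21.3% of all named genes passed it. Cd22, the sialic acid binding inhibitor of receptor signalling, read 228.1 and 213.9 with 1419768_at, or 4.2 and 3.81 times the bound. Its other probe set, 1419769_at, read 47.9 on set 1 and 52.4 on set 2 and was not above background. Cr2, which encodes the complement receptors CD21 and CD35, read 37.1 and 52.2 with its only probe set, under the bound on both arrays.

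Of the genes above background, Cd79a and Cd22 had a promoter in the RefSeq table used (GRCm38.p6), which held an entry for 5 of the 9 genes. They are shown because both genes were called, while the probe sets of Ebf1 and Pax5, which are known to act on the Cd79a promoter in B cells, stayed under the bound. Each runs from 250 bases before to 50 bases after the start of the gene. Capitals mark matches, on either strand, to 3 motifs picked with the sequences in view: the Ebf1 core CCCNNGGG, the octamer ATTTGCAT and the E box CAGGTG.
Cd79a promoter (GRCm38.p6, chr7:24897247-24897546, plus strand): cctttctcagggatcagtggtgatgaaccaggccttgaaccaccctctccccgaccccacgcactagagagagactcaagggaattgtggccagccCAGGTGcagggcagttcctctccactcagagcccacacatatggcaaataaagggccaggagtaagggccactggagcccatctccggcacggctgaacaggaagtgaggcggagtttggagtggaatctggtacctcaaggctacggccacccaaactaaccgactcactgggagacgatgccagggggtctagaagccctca
Cd22 promoter (GRCm38.p6, chr7:30878979-30879278, minus strand): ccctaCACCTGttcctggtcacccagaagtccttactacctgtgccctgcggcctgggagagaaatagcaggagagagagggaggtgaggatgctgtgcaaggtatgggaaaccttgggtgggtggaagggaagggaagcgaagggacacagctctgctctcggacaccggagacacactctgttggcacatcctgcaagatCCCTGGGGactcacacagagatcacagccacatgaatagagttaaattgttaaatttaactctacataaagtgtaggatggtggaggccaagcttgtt

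The Cd22 promoter held 1 match to the Ebf1 core and 1 to the E box, and the Cd79a promoter 1 to the E box. No marked matches overlapped. Among all 32851 promoters of the table, 13.7% held the Ebf1 core, 20.2% the E box and 1.74% the octamer. The match is a description of the letters and does not show a bound site. Nor does the lack of a match to CCCNNGGG in the Cd79a promoter show that it has no Ebf1 site, since sites can depart from these letters. No motif for Pax5 was searched.

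Blk, a Src family kinase of B cells, was the weakest call. It read 63.6 on set 1 and 87.2 on set 2, or 1.17 and 1.55 times the bound (75.4 ± 16.7). Both readings were above the bound, but 3 of the 46 off-tissue genes were as bright on both arrays. It was also the only gene above background with no probe set higher on set 1, with a log2 difference of -0.43 (set 1 minus set 2, less the median over all probe sets above background).

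The transcription factor genes were not above background. Pax5, which commits progenitors to the B lineage, read 54 on set 1 and 53.7 on set 2 with 1454401_at, 0.995 and 0.955 times the bound, and 14.5 and 8.8 with 1421765_at. The brighter probe set thus missed the bound by less than the arrays differ at that level. Ebf1, which opens the B lineage programme before Pax5, had 5 probe sets, and all 5 were under the bound on both arrays. The brightest, 1448293_at, read 27.4 and 47.8, and the dimmest, 1457441_at, read 22.7 and 16.1. Of 463 genes with 5 probe sets, 78% had at least 1 above background, so Ebf1 belonged to the minority with none. These readings give an upper limit on signal, not proof that the transcripts were absent.

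Agreement between the probe sets of a gene could be read for 5 of the 9 genes. Both probe sets of Ms4a1 were above background, both of Pax5 and all 5 of Ebf1 were under it, and the probe sets of Cd22 and Ighm disagreed. Over all genes with at least 2 probe sets, 39.5% disagreed in this way. The share rose with the number of probe sets. It was 27.3% for genes with 2, as Cd22 has, and 80% for the 5 genes with 10 or more, Ighm among them. These shares include genes with no probe set above background, which cannot disagree. Among the 2587 genes with 2 probe sets and at least 1 above background, as for Cd22, 49.6% disagreed. A ratio between probe sets was taken only where both were above background. For Ms4a1 the brighter probe set had 3.62 times the mean intensity of the dimmer, where the 1304 genes with 2 probe sets, both above background, had a median of 1.76 and an upper quartile of 2.62. For Cd22 and Ighm the probe sets not above background hold only an upper limit, and no ratio is given.

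Some of these probe sets carry the same sequence record in the platform annotation. The probe sets of Ms4a1 share a record and were both above background, and 3 of the 5 Ebf1 probe sets, 1448293_at, 1416301_a_at and 1416302_at, share a record and were all under the bound. The probe sets of Cd22 also share a record, as do 1427870_x_at and 1427869_at of Ighm, and in each of these pairs only the brighter was above background. Over 2400 such groups with at least 1 probe set above background, no probe set was under the bound on either array in 62.5%.

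None of the 11 probe sets above background differed over 1.5-fold between the arrays, where 2.78% of all probe sets above background did. Their log2 differences, centred as for Blk, ran from -0.43 for Blk to 0.36 for the Ighm probe set 1427756_x_at, with a median of 0.12. The SD over all 17041 probe sets above background was 0.24. The reading was higher on set 1 for 9 of the 11, and for 10 of all 11 Ighm probe sets, where 44.6% of all probe sets above background were higher on set 1. Set against all probe sets of like intensity, 24 of the 26 lay within the central 95% of differences. The exceptions were the dim 1427869_at and the brightest Ighm probe set, 1427351_s_at, whose difference lay just past the upper limit, both 0.28 when rounded. Probe sets of Ighm share a target gene and are not separate replicates. Of the 5 Ebf1 probe sets 4 were higher on set 2, all under the bound. With 2 arrays no test of these differences was possible.

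**Figure D2:**
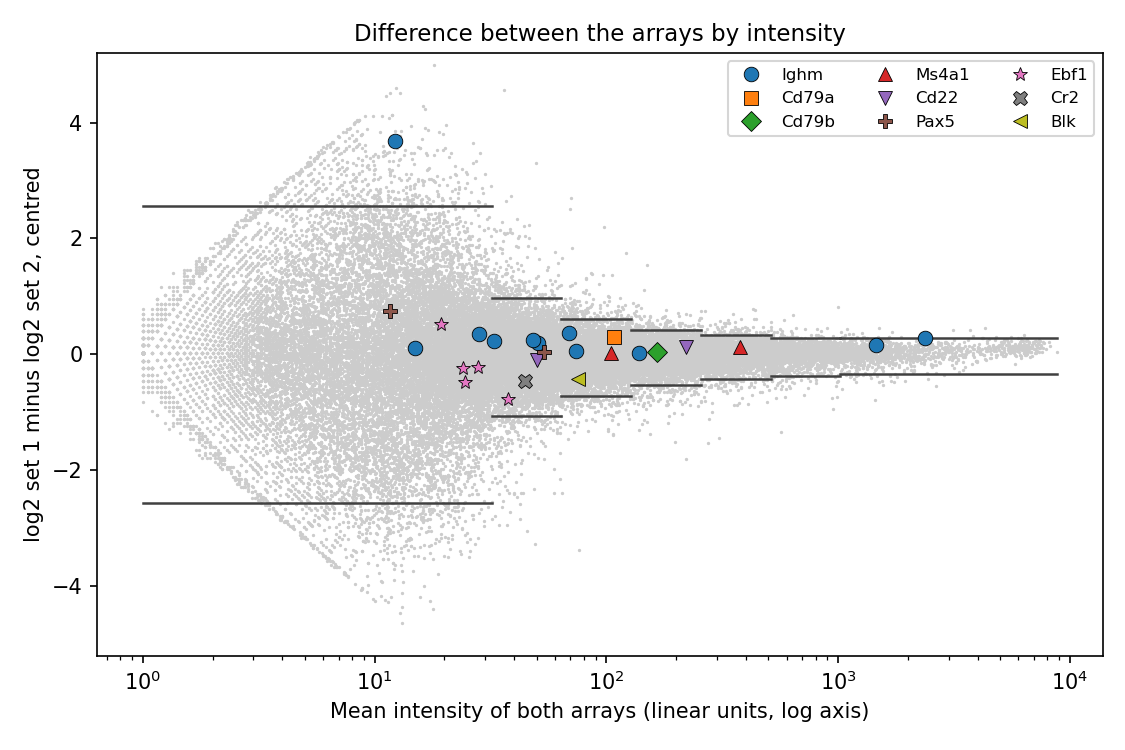
Centred log2 difference between set 1 and set 2 (vertical axis) against mean intensity (log axis) for all 45037 probe sets (grey, means under 1 drawn at 1 and differences beyond 5 drawn at 5) and for the probe sets of the 9 genes (coloured symbols). Dark lines enclose the central 95% of all probe sets in each range of intensity; the spread narrows to the right, and the Ighm probe set far above the upper line reads 22.8 on set 1 and 1.8 on set 2.

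The calls of Ms4a1 held under all 10 alternative settings of the bound, arrays, probe sets or gene rule, and Ebf1 stayed under the bound in all 10. Cd79a and Cd79b were called in 9, failing at 4 times the bound, and Cd22 and Blk in 8. The latter pair also failed at 4 times the bound. Cd22 failed further when every probe set had to exceed the bound. Blk failed further with the bound at the 95th percentile of the genes of other organs. Ighm was called in 7 of 10. It was lost when only probe sets without a special ending were used, when the median over its probe sets gave the call and when every probe set had to exceed the bound. Pax5 was called in 2, with the bound at the 90th percentile of the off-tissue genes that set the reported bound and at the median of the array. Cr2 was called in 1 of 9, with the bound at the median of the array.

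**Figure D3:**
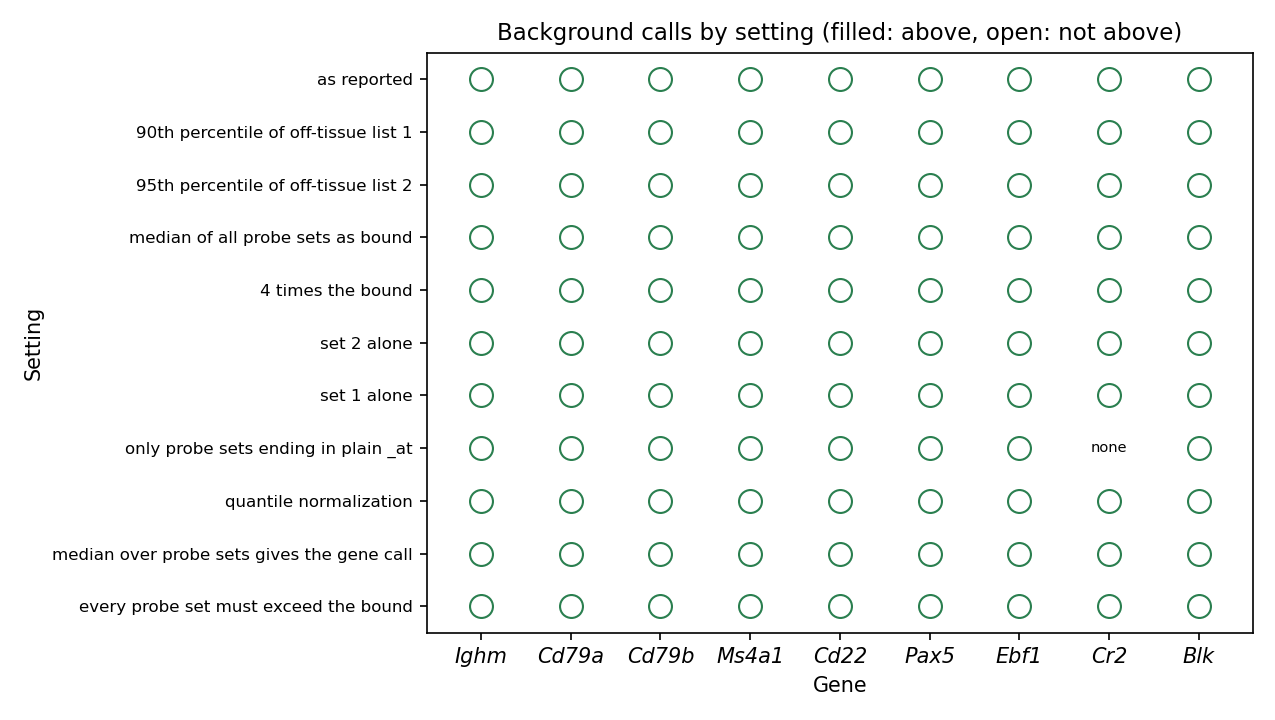
Grid of the 9 genes (columns) as reported and under 10 alternative settings (rows), where Cr2 has no probe set without a special ending. All circles are drawn open by a drawing fault, so the fill does not show the calls, although the title gives a key to it. The calls are given in the text above. Ms4a1 was above background in every row and Ebf1 in none.

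Other genes of the B lineage were read from 6 lists of 74 different genes, of which 61 had a probe set of their own and 43 (70.5%) were above background, beside the 47.2% of all named genes. Genes that signal from the receptor were above background in 13 of 15 cases. They included the phosphatase gene Ptpn6 at 573.85 ± 35.3, the coreceptor gene Cd81 at 516.15 ± 54.7, the protein kinase C gene Prkcb at 387.6 ± 4.81 and the inhibitory Fc receptor gene Fcgr2b at 310.9 ± 51.6, the last with 1 of 5 probe sets. The kinase gene Btk, at 46.55 ± 6.86, and the sialic acid binding lectin gene Siglecg, at 50.7 ± 4.67, were not. Many genes of this list, such as Ptpn6 and Cd81, are known to be used by T cells too. Less bright genes of the list were above background as well, such as Bank1 at 176.05 ± 5.3 and Blnk at 134.65 ± 2.9.

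Transcription factor genes of the lineage other than Pax5 and Ebf1 were above background in 11 of 13 cases. Ikzf1 was at 2113.5 ± 9.33, Bach2 at 1305.8 ± 1.77, Foxo1 at 501 ± 33.9 and Irf4 at 409.95 ± 25.4, and all 4 factors also act in T cells. Less bright factor genes above background included Pou2af1 at 269.95 ± 9.69 and Spib at 145.6 ± 15.4. Bcl11a at 33.15 ± 5.16 and Spi1, which encodes PU.1, at 56 ± 3.39 were not above background. Of 13 other surface genes 8 were, among them the TACI gene Tnfrsf13b at 332.5 ± 2.83 and the tetraspanin gene Cd37 at 301.5 ± 11.5. The costimulatory receptor gene Cd40 at 46.65 ± 13.7 and the low affinity IgE receptor gene Fcer2a at 41.95 ± 22 were not.

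Genes of B cell progenitors and of antibody secreting cells gave mixed calls. The shares above background were 44.4% of early, 57.1% of plasma cell and 80% of other immunoglobulin genes, beside 47.2% of all named genes. Of 9 early genes 4 were above background, with Cd93 at 155.45 ± 5.16 and Vpreb3 at 78 ± 1.27, and none of the 4 reached 4 times the bound. The recombinase gene Rag1 at 1.05 ± 0.636 and the surrogate light chain gene Igll1 at 25.6 ± 0.99 were not above background. Of 7 plasma cell genes 4 were, with Xbp1, a factor of the unfolded protein response in many cells, at 908 ± 28.4, Mzb1 at 280.25 ± 5.16, Prdm1 at 162.3 ± 4.81 and Jchain, which links IgM and IgA into polymers, at 92.4 ± 2.83. The plasma cell surface gene Sdc1 at 19.75 ± 9.83 was not. Of the 14 genes in the list of other immunoglobulin genes 5 were measured. They included Jchain, the joining chain gene already counted in the plasma cell list, so the shares of these 2 lists overlap. Of the 5, 4 were above background, all under 100 in mean intensity: Jchain, Ighg3 at 79.35 ± 11.9, Igha at 76.9 ± 8.2 and Iglv1 at 62.9 ± 9.76. The last 3 each rested on 1 probe set, of 4, 3 and 3.

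**Figure D4:**
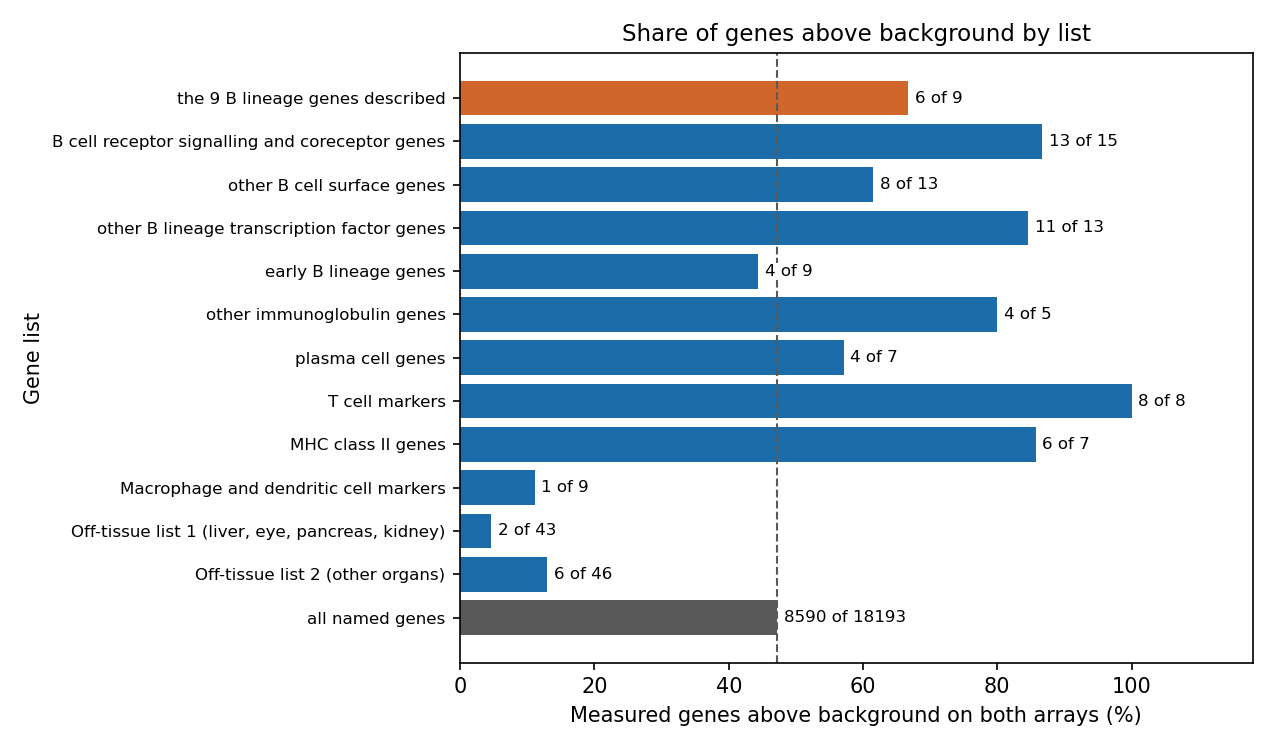
Share of the measured genes above background on both arrays (horizontal axis, %) for the 9 genes, the 6 lists of other B lineage genes, marker lists and both off-tissue lists, with counts beside the bars and the share of all named genes as a dashed line. The 9 genes stand at 6 of 9, T cell markers at 8 of 8 and macrophage and dendritic cell markers at 1 of 9.

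Markers of other cells that present antigen were read beside these genes. MHC class II genes, which B cells share with dendritic cells and macrophages, were above background in 6 of 7 cases, with summed intensities of 1752.3 on set 1 and 1653.8 on set 2. They included the invariant chain gene Cd74 at 723.4 on set 1 and 665.3 on set 2, while their master regulator gene Ciita, at 43.5 and 41.9, was not above background. Markers of macrophages and dendritic cells were above background in 1 of 9 cases, Csf1r, at 57.3 and 146.7. Their summed intensity, mostly from probe sets under the bound, was 247.9 on set 1 and 442.2 on set 2. The brightest probe sets of the 9 B lineage genes summed to 3665.1 and 3245.8, and without Ighm to 1084.5 and 1082.8. These sums come from different genes and probes, so they do not compare amounts of RNA between cell types. The defining markers Itgam, Itgax and C1qa were under the bound on both arrays, and Adgre1, at 39.7 and 76.6, on set 1 alone. The part of other cells in the readings of the 9 genes was not tested.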

How the data were processed

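Each of the 2 arrays gave 1 linear intensity per probe set, deposited by the authors. How they corrected background, summarised probes or scaled the arrays is not stated in the labels, so a common scaling target is neither known nor assumed. The 64 control probe sets were left out. Genes were named through GEO's annotation of the platform, in which 34958 probe sets had 1 symbol, 932 had several and 9211 were not listed. Entrez identifiers matched 34741 of the 34945 single-symbol probe sets without controls to the RefSeq table (GRCm38.p6), with 0 changed symbols.

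The bound came from 43 measured genes of the off-tissue list for liver, eye, pancreas and kidney. Values given as mean ± SD are over both arrays (n = 2). Intensities under 1 were set to 1 before log2, and differences are set 1 minus set 2, less the median of -0.03 over probe sets above background. All 9 genes were described with every probe set. From each further list, up to 4 genes above background by mean intensity and up to 3 others in alphabetical order could be named. Tg, Pomc, Mybpc3, Bank1, Blnk, Pou2af1, Spib and the markers of other cells were named after their values were seen. The value given for a listed gene is its brightest probe set. No gene was named for a like pattern, since 1 group holds none. Members and lists were chosen with earlier results of these data known. With 1 group there is no comparison between conditions and no p-value, and precision is limited by having 2 arrays. The alternatives changed the bound, the arrays used, the probe sets used, the gene rule, the floor, the centring and the scaling (quantile normalization). The calls were also run on simulated data. There the absent and the off-tissue probe sets were drawn from the same distribution, so the run cannot tell how often calls are false in these data. Python 3.11.15, numpy 2.4.6, pandas 2.3.3 and matplotlib 3.10.9 were used.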

Additional observations from a re-analysis of the deposited data

How the results depend on the processing

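Of 51 summary values recomputed under alternatives, 45 stayed within 1.5 times their reported value or, for the median log2 difference, within 1 SD of the probe sets. This count is a loose measure. That SD of 0.24 exceeds the reported median of 0.12. A floor of 16 lies under the bound and could not move that median, and leaving out the centring only shifts it by a constant. At 4 times the bound, a stricter limit by construction, 2 of the 9 genes (Ighm and Ms4a1) and 3 of their probe sets were above it. So were 16 of the 61 other B lineage genes. As reported, these counts were 6, 11 and 43. Of all named genes 21.3% and of all probe sets 14.4% passed 4 times the bound, beside 47.2% and 37.8% as reported. With only probe sets that end in _at with no further letter, 17 of the 26 were left. Of these 17, 6 were above background and 1 gene had probe sets that disagreed, against 11 and 2 as reported. Of all such probe sets on the array 33.3% were above background. With every probe set of a gene required to exceed the bound, 27 of the 61 other B lineage genes were above background, beside 27.7% of all named genes. On either array alone the counts were 6 genes and 11 probe sets of the 9 genes, 2 genes whose probe sets disagreed and 44 to 46 other B lineage genes. There 49.6% to 49.8% of all named genes and 40.1% to 40.4% of all probe sets were above the bound. The other settings gave 5 to 8 of the 9 genes, beside 39.8% to 55.4% of all named genes. Only every probe set being required gave 4. The median difference ran from 0.08 to 0.13. No paired analysis was possible because the arrays form 1 group. The calls of Blk, Pax5, Cr2 and Cd79a are limited by signal over background.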

Other observations

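Probe sets for the kappa light chain, the partner of the mu chain in most mouse IgM, gave unlike readings. The 3 probe sets whose annotation lists the constant gene Igkc together with 4 kappa segment symbols, and which therefore name no gene here, read 1389.3, 1248.6 and 826.2 on set 1 and 1332.7, 1332.7 and 811.1 on set 2. These are 14.4 to 25.6 times the bound, and all 3 carry the ending _x. The 4 probe sets annotated to Igk alone were all under the bound, the brightest, 1452557_a_at, at 44.1 on set 1 and 43.9 on set 2. Of 17 probe sets annotated to 1 kappa variable segment, 2 were above background, that for Igkv8-30 at 274 and 321.7 and a further one at 70 and 84.9. These probe sets were picked after their values were seen, and which transcripts they bind was not tested.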
